A study of Mus musculus with 42 samples.

Results

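The comparison described here sets MC38 tumors of mice given 3 antibodies, aPD1 + aGMCSF + aIL2RB (biological replicates 1 to 11, n = 11), against tumors of the isotype control group (biological replicates 1 to 5, n = 5). Tumors were chosen by their labels alone and make up 16 of the 42 tumors of the series. MC38 is a mouse colon carcinoma line, and every host of both groups was a female F1 mouse of CC075/UncJ and C57BL/6J (CC75xB6), aged 8 to 12 weeks and injected under the skin with 500000 cells. The triple antibody mice received 100 μg of aGMCSF and 200 μg of aIL2RB every 3 days from engraftment until the tumor measured 75 to 110 mm3, and then a single dose of 200 μg of aPD1. The isotype control mice received nonspecific antibodies on the same schedule and no blocking antibody. Tumors were collected 48 h after the last dose, and each RNA-seq library is poly(A) RNA of a whole tumor. The groups differ in 3 antibodies at once, so the part of any single antibody in a difference cannot be told apart by this contrast. The other 26 tumors (aPD1, n = 6, aPD1 + aGMCSF, n = 9, and aPD1 + aIL2RB, n = 11) entered the model fit, and their medians are given beside a few genes as a description only.

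PD-1 is an inhibitory receptor of activated T cells, and antibodies that block it can release T cell responses against tumors. IL2RB is the signaling chain shared by the receptors for IL-2 and IL-15, on which NK cells and many CD8 T cells depend, and its signal through STAT5 induces genes such as Cish. GM-CSF, the product of Csf2, is made by activated lymphocytes and other cells and acts on macrophages, neutrophils and dendritic cells. CC75xB6 is a genetic background in which MC38 tumors respond to aPD1, and the experiment asked how blocking GM-CSF and IL2RB alters the state of the tumor under aPD1. The present comparison covers every expressed gene, including the genes of the stroma, the vessels and the tumor cells. In bulk tumor RNA, fewer cells of a type and less RNA per cell cannot be told apart.

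The isotype control tumors had 20297643 to 22517200 rounded counts, and the triple antibody tumors had 17456096 to 22781418 except replicate 4, which had 7155486. The tumors of the series were divided into 2 sets along their replicate numbers, which the labels do not name. The division was taken from earlier work on these data, so tests by set may not be independent of the expression values. The lower-numbered set holds isotype control replicates 1 and 2 and triple antibody replicates 1 to 6, and the higher-numbered set holds isotype control replicates 3 to 5 and triple antibody replicates 7 to 11. Isotype control replicates 2 and 4 also stood apart, with low levels of genes that have long transcripts, as described with the short and long genes. Results were therefore computed within each set and without these 2 tumors as well. The epithelial markers of a carcinoma were scarce: Epcam was at most 1.26 CPM (counts scaled to library size after TMM normalization) in isotype control and 0.623 in triple antibody tumors, Krt8 at most 4.34 and 2.02, Krt18 at most 3.04 and 1.30, and Krt19 at most 6.21 and 2.70.

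Of 16932 genes tested with edgeR's quasi-likelihood method, 963 (5.69%) were called higher and 763 (4.51%) lower in triple antibody tumors than in isotype control tumors at a Benjamini-Hochberg adjusted p under 0.05. Most changes were small. The median log2 fold change was 0.39 among genes called higher and -0.27 among genes called lower, and 129 genes rose and 99 fell by at least 1 on the log2 scale. Every triple antibody tumor lay above every isotype control tumor for 139 genes (0.821%) and below for 135 genes (0.797%). Over all tested genes the median log2 fold change was 0.02. The same contrast called 161 genes (0.951%) higher and 171 (1.01%) lower within the lower-numbered set, and 820 (4.84%) higher and 1091 (6.44%) lower within the higher-numbered set. Of the 1726 genes called, 1720 had the same sign in both sets, and 238 and 897 were also called within the lower- and the higher-numbered set. The size of the difference changed between the sets for 186 genes (1.1%), and without isotype control replicate 1 for 4 (H19, Cilp, Tead4 and Cd93). Without isotype control replicate 4 the contrast called 485 genes, without replicate 2 it called 651, and without both it called 81, while all 1726 genes kept their sign. That last fit compares 3 isotype control tumors with 11 tumors, and why it called fewer genes was not tested. Counts of called list members that follow are to be read beside the calls over all genes in the same fit. In fits without 1 tumor these ranged from 485 to 2019 genes.

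**Figure D1:**
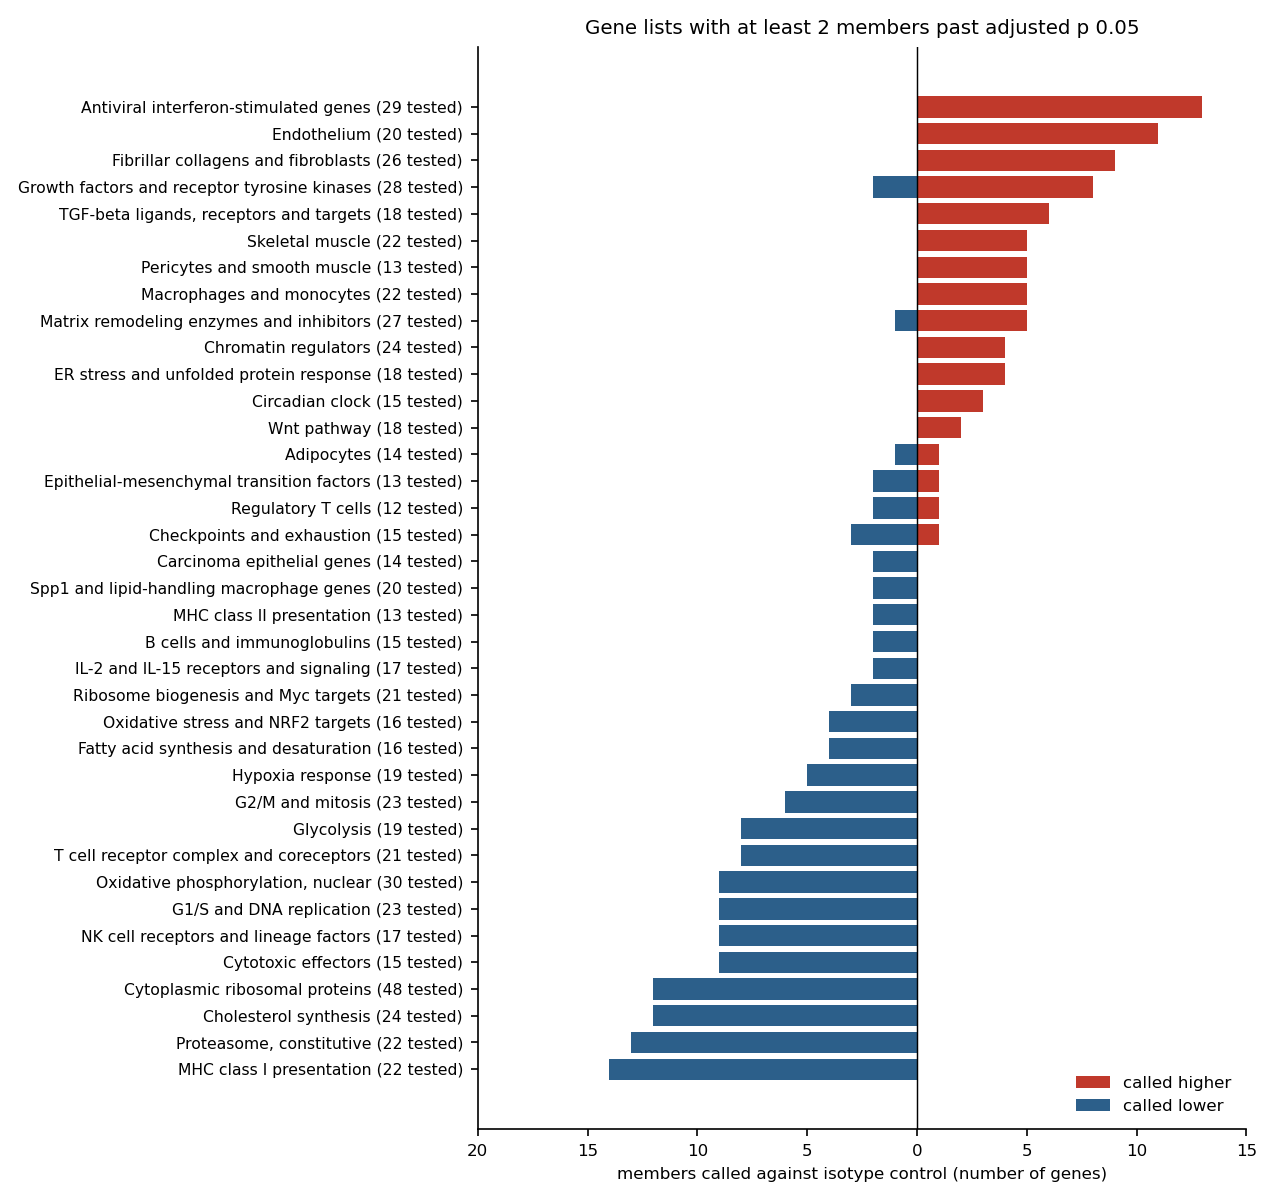
Number of members of each gene list called higher (red, to the right) or lower (blue, to the left) in aPD1 + aGMCSF + aIL2RB than in isotype control tumors, for lists with at least 2 calls. The horizontal axis counts genes, and the number of members tested stands beside each list name. Lymphocyte, antigen presentation, proteasome and sterol lists extend to the left, with 14 of 22 MHC class I genes lower, and antiviral, endothelial and fibroblast lists to the right, with 13 of 29 antiviral genes higher.

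Of 17 natural killer (NK) cell receptors and lineage factors tested, 9 fell and none rose (median log2 fold change -1.92, against 0.02 over all genes), and a few of them were at or near 0 in triple antibody tumors. The summed level of the list was 73.6 to 93.3 CPM in isotype control and 28.1 to 99.8 CPM in triple antibody tumors, where replicate 1 was the highest, and 4 fell within the lower-numbered and 14 within the higher-numbered set. Ncr1, which encodes the activating receptor NKp46, was at 0.850, 1.32, 1.51, 1.90 and 1.12 CPM in isotype control replicates 1 to 5 and at 0 in 10 of 11 triple antibody tumors, with a maximum of 0.105. The groups did not overlap, and the triple antibody tumors together held 2 Ncr1 counts against 146 in isotype control, a level 141-fold higher in isotype control (95% counting interval 38.5 to 1179, log2 fold change -6.41 ± 0.55 (SE), adjusted p = 3.78e-09). Klrb1c, which encodes NK1.1, was at 2.83, 2.46, 2.92, 1.94 and 2.24 CPM in isotype control and 0 to 0.367 CPM (median 0.0513) in triple antibody tumors (log2 fold change -4.35 ± 0.50 (SE), adjusted p = 1.63e-07). Again no tumors overlapped. Klra7, an inhibitory Ly49 receptor, had no count in any of the 11 triple antibody tumors and 60 counts in isotype control, which makes it at least 38.8-fold lower over the group when 3 counts are taken as the floor. Klri2, another NK cell lectin-like receptor, was at 0 to 0.527 CPM (median 0.0980) against 1.46, 1.51, 1.31, 1.14 and 1.17 CPM in isotype control (log2 fold change -3.03 ± 0.55 (SE), adjusted p = 0.000546). Within the lower-numbered set the log2 fold changes were -5.47 (adjusted p = 0.00404) for Ncr1 and -3.75 (adjusted p = 0.00404) for Klrb1c, and within the higher-numbered set -7.96 (adjusted p = 5.72e-05) and -6.03 (adjusted p = 1.01e-05). In the other groups the Ncr1 median was 1.23 CPM in aPD1, 0.806 in aPD1 + aGMCSF and 0 in aPD1 + aIL2RB. The number of NK genes called rose to 14 without triple antibody replicate 1. Klrb1c and Klra7 belong to gene families with similar sequences, and some of their counts were divided between genes.

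Granzymes are the proteases of cytotoxic granules. Of 15 cytotoxic effector genes tested, 9 fell and none rose (median log2 fold change -1.90), and 7 of the 15 fell without isotype control replicates 2 and 4. Within the lower-numbered set 4 fell (median -1.20) and within the higher-numbered set 14 (median -5.63), and the change between sets was called for 7 of them. Gzma was at 3.02, 4.06, 6.80, 5.95 and 4.90 CPM in isotype control replicates 1 to 5 and had no count in 9 of 11 triple antibody tumors (8 counts in all against 534, 129-fold higher in isotype control, 95% counting interval 65.2 to 301.1, adjusted p = 1.35e-10). Gzmc was at 23.2, 14.9, 47, 45 and 19 CPM in isotype control and 0 to 2.90 CPM (median 1.36) in triple antibody tumors (log2 fold change -4.98 ± 0.56 (SE), adjusted p = 1.37e-07), and no triple antibody tumor reached the lowest isotype control tumor. Among its neighbors in the same cluster on chromosome 14, Gzmd was at 0 to 3.77 CPM (median 1.13) against 19.4, 6.48, 40.4, 43.5 and 17.1 CPM (log2 fold change -4.50 ± 0.65 (SE), adjusted p = 2.13e-05). Gzmg levels were 0 to 1.05 CPM (median 0.0980) against 15.1, 6.34, 45.3, 49.8 and 19.2 CPM, 124-fold higher in isotype control (95% counting interval 92.8 to 169.9, adjusted p = 4.35e-09). The log2 fold changes of Gzmc were -3.44 (adjusted p = 0.00238) and -9.64 (adjusted p = 8.34e-07) in the lower- and the higher-numbered set (adjusted p of the change between sets = 0.0244), and those of Gzmd -2.65 (adjusted p = 0.0469) and -9.51 (adjusted p = 1.91e-06) (adjusted p of the change between sets = 0.0244). Gzmb, the main granzyme of cytotoxic T cells, was at 13.9, 14.2, 25.8, 21.2 and 15.5 CPM in isotype control, and triple antibody tumors spanned 0 to 24.1 CPM (median 1.73). The medians of the triple antibody tumors were 3.97 CPM in the lower-numbered and 0.471 in the higher-numbered set, with log2 fold changes of -0.68 (adjusted p = 0.703) and -5.63 (adjusted p = 1.93e-06) (adjusted p of the change between sets = 0.0309). For all 3 the change between sets was not called without isotype control replicate 1. The Gzmb difference over all 16 tumors (log2 fold change -1.90 ± 0.62 (SE), adjusted p = 0.0420) lost its call in 13 of 16 fits without 1 tumor (adjusted p = 0.0547 to 0.110), all but those without triple antibody replicate 1 or 4 or isotype control replicate 1.

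Cish, an inhibitor of cytokine signaling that STAT5 induces, was the clearest change among 17 IL-2 and IL-15 receptor and signaling genes, of which 2 fell and none rose (median log2 fold change -0.24). Without triple antibody replicate 1, 5 of them fell, and 1 fell within the lower-numbered and 8 within the higher-numbered set. It was at 5.29, 5.48, 4.13, 1.94 and 3.04 CPM in isotype control and 0.392 to 1.44 CPM (median 0.719) in triple antibody tumors (log2 fold change -2.35 ± 0.29 (SE), adjusted p = 5.24e-07). Every triple antibody tumor was below every isotype control tumor, and the difference was close in both sets, -2.68 (adjusted p = 0.000468) and -2.11 (adjusted p = 0.00153). The other groups had Cish medians of 5.95 CPM in aPD1, 3.37 in aPD1 + aGMCSF and 1.38 in aPD1 + aIL2RB. Il2rb, the gene of the blocked receptor chain, was at 17.7, 21.9, 18, 15.6 and 23 CPM in isotype control and 0.623 to 19.2 CPM (median 2.99) in triple antibody tumors (log2 fold change -2.04 ± 0.49 (SE), adjusted p = 0.00839), with overlap between the groups. Its log2 fold change was -1.31 (adjusted p = 0.216) within the lower-numbered and -4.43 (adjusted p = 1.03e-06) within the higher-numbered set. RNA of a receptor does not report whether the protein was blocked.

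**Figure D2:**
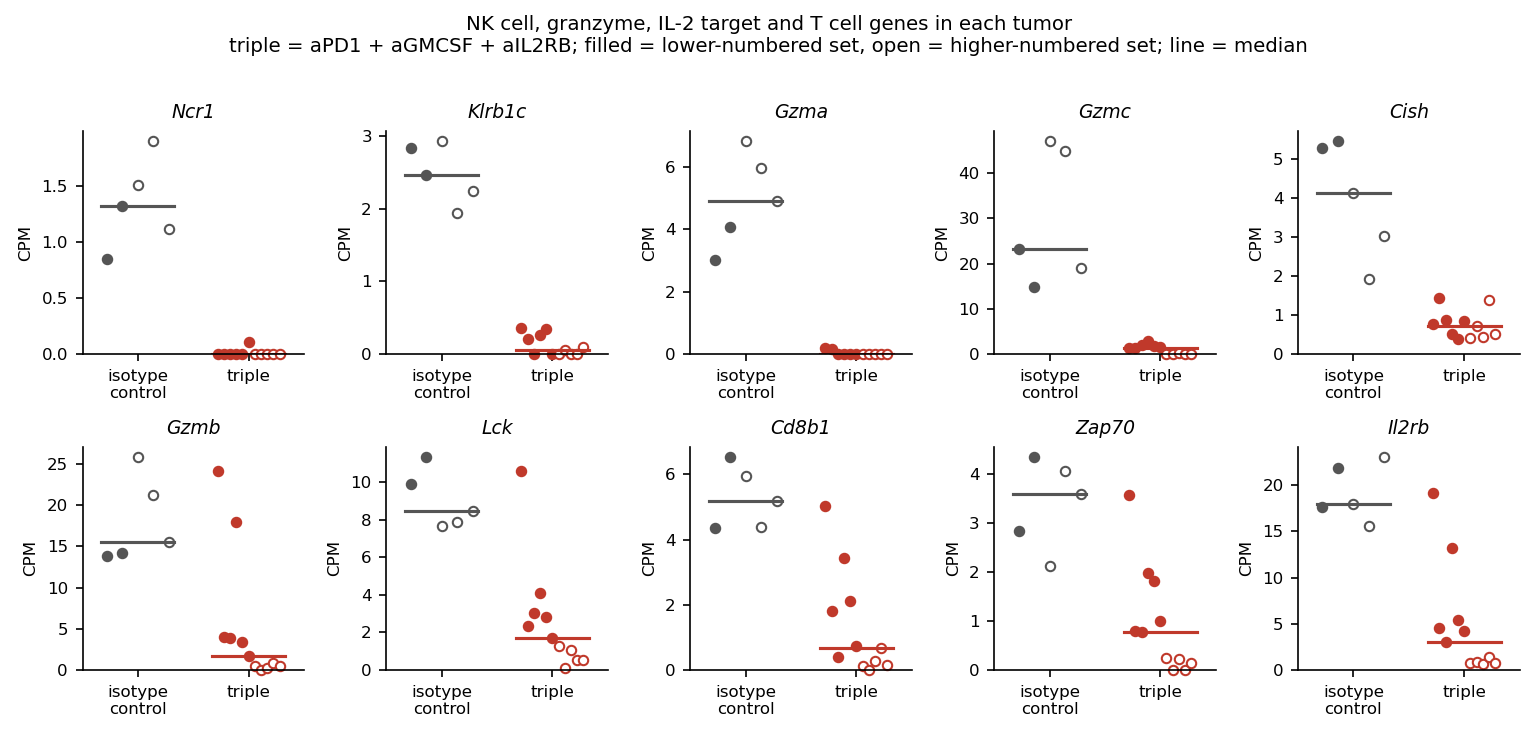
Levels of NK cell, granzyme, IL-2 target and T cell genes in CPM (vertical axes, linear from 0) in each isotype control (grey) and aPD1 + aGMCSF + aIL2RB tumor (red). Filled points are the lower-numbered set, open points the higher-numbered set, and lines are group medians. For Ncr1, Klrb1c, Gzma, Gzmc and Cish no triple antibody tumor reaches an isotype control tumor, whereas triple antibody replicate 1 does for Lck, Cd8b1, Zap70 and Il2rb, and replicates 1 and 4 do for Gzmb.

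Genes of the T cell receptor complex were lowest in the triple antibody tumors of the higher-numbered set. Over both sets, 8 of 21 genes tested fell and none rose (median log2 fold change -1.47). Within the higher-numbered set 19 fell (median -3.50), and within the lower-numbered set none was called. The summed level of the list was 88.2 to 146 CPM in isotype control tumors, 44.3 to 86.6 in triple antibody replicates 2 to 6, 186 in replicate 1 and 11.6 to 23.7 in replicates 7 to 11, so that replicate 1 alone was not below every isotype control tumor. Lck, the kinase that starts T cell receptor signaling, was at 9.91, 11.3, 7.66, 7.89 and 8.45 CPM in isotype control and 0.103 to 10.6 CPM (median 1.68) in triple antibody tumors (log2 fold change -1.85 ± 0.43 (SE), adjusted p = 0.00593). The log2 fold change of Lck was -1.39 (adjusted p = 0.127) in the lower- and -3.53 (adjusted p = 6.85e-06) in the higher-numbered set, and a change between the sets was not called for this gene (adjusted p = 0.131). Cd8b1, a chain of the CD8 coreceptor, was at 4.34, 6.53, 5.95, 4.39 and 5.18 CPM in isotype control and 0 to 5.03 CPM (median 0.675) in triple antibody tumors (log2 fold change -2.05 ± 0.52 (SE), adjusted p = 0.0122). For Zap70, the kinase downstream of Lck, the change between the sets was called (adjusted p = 0.0314), though not without isotype control replicate 1, with log2 fold changes of -1.14 (adjusted p = 0.217) and -4.69 (adjusted p = 1.97e-05). Both sets hold few isotype control tumors, 2 and 3, and the difference in counts of called list members between the sets was tested for no list. The count of T cell genes called was 16 without triple antibody replicate 1, which had the highest summed level, 4 without isotype control replicate 2, 3 without replicate 4 and 0 without both of these. The median log2 fold change of the list in that last fit was -1.40. Zap70 lost its call without isotype control replicate 4 (adjusted p = 0.0507).

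Among 15 checkpoint and exhaustion genes, 3 fell and 1 rose (median log2 fold change -0.14). The lower-numbered set had none lower and 1 higher (median -0.05), and the higher-numbered set 9 lower and 1 higher (median -0.90). Pdcd1, which encodes the target of aPD1, was at 7.46, 8.76, 3.17, 6.63 and 7.71 CPM in isotype control and 0.471 to 8.22 CPM (median 2.46) in triple antibody tumors (log2 fold change -1.19 ± 0.37 (SE), adjusted p = 0.0342). Tigit, an inhibitory receptor and another of the 3, was called in 2 of 16 fits without 1 tumor, and 5 genes of the list fell without triple antibody replicate 1. Pdcd1lg2, the gene of the ligand PD-L2, was at 1.32, 2.15, 1.06, 1.18 and 1.54 CPM against 0 to 1.31 CPM (median 0.120) (log2 fold change -2.35 ± 0.60 (SE), adjusted p = 0.0123). Nr4a2, an orphan nuclear receptor that many cell types express, rose, from 9.39, 7.39, 9.32, 6.71 and 8.45 CPM to 10.6 to 17.4 CPM (median 12.4) (log2 fold change 0.66 ± 0.13 (SE), adjusted p = 0.00167), with no overlap. Tnfrsf9, the costimulatory receptor 4-1BB, fell from 11.7, 13.6, 13.6, 13.2 and 9.44 CPM to 1.59 to 11.9 CPM (median 4.61) (log2 fold change -1.37 ± 0.26 (SE), adjusted p = 0.00133). Among 12 regulatory T cell genes, which include Tnfrsf9, 2 fell and 1 rose over both sets (median -0.64). Within the higher-numbered set 7 fell (median -1.36), and none was called within the lower-numbered set (median -0.69). The log2 fold change of Pdcd1 was -0.89 (adjusted p = 0.268) in the lower- and -2.15 (adjusted p = 0.000999) in the higher-numbered set. Pdcd1 lost its call without triple antibody replicate 8 or 9 or isotype control replicate 1, 2, 4 or 5 (adjusted p = 0.0520 to 0.107), and the count of checkpoint genes called was 2 in each of these fits and 0 without isotype control replicates 2 and 4. The count of regulatory T cell genes was 6 without triple antibody replicate 1.

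Ccl22, a dendritic cell chemokine that attracts regulatory T cells, was at 7.13, 10.8, 2.77, 1.56 and 2.76 CPM in isotype control and 0 to 2.25 CPM (median 0.712) in triple antibody tumors (log2 fold change -2.48 ± 0.48 (SE), adjusted p = 0.00123). The isotype control tumors of the lower-numbered set were the highest of all. Cxcl13, which attracts B cells and T follicular cells, was at 62.9, 106, 10.1, 19.9 and 18.9 CPM against 0.707 to 35.6 CPM (median 7.74) (log2 fold change -1.88 ± 0.55 (SE), adjusted p = 0.0245), and its call was lost without isotype control replicate 2 (adjusted p = 0.203). Cxcr6, a receptor of tissue-resident T cells, was at 6.66, 11.5, 5.39, 5.40 and 7.24 CPM against 0.363 to 11.8 CPM (median 1.15) (log2 fold change -1.78 ± 0.50 (SE), adjusted p = 0.0199), with the call lost without the same tumor (adjusted p = 0.0851). Over both sets, 1 of 15 CC chemokines and receptors, 1 of 6 genes of the CXCR3 axis, 1 of 21 dendritic cell genes and 2 of 15 B cell genes were called, all of them lower, against 4.51% lower over all tested genes, with Ccl22 counted in both the CC and the dendritic cell list. Within the higher-numbered set 6 CC genes fell and 1 rose, 4 CXCR3 axis genes fell, 6 dendritic cell genes fell and 1 rose, and no B cell gene was called. Within the lower-numbered set 1, 0, 1 and 2 genes of these lists fell. Without triple antibody replicate 1, 3, 2, 4 and 4 fell. Without isotype control replicate 2 no CXCR3 axis and no B cell gene was called lower.

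Cxcl9, an interferon-gamma-induced T cell chemokine, and Spp1, which encodes osteopontin, were compared as the ratio of their counts in each tumor. The Cxcl9/Spp1 ratio was 1.21, 1.75, 0.582, 0.622 and 1.05 in isotype control replicates 1 to 5. In triple antibody replicates 1 to 6 it was 2.01, 1.01, 0.280, 1.15, 1.05 and 0.447, and in replicates 7 to 11 it was 0.154, 0.0390, 0.0720, 0.165 and 0.0914. The lower-numbered tumors overlapped with isotype control, and the higher-numbered tumors were all below it. The exact two-sided Wilcoxon test over all 16 tumors gave p = 0.115, and the test within the higher-numbered set p = 0.0357 (the smallest that 3 against 5 tumors can give). The test within the lower-numbered set gave p = 0.286 (2 against 6 tumors cannot give less than 0.0714, so this test could not pass 0.05). An exact permutation test of the mean log2 ratio gave p = 0.0806 over all 16 tumors and p = 0.00638 with labels permuted within sets. These are unadjusted values of 23 tests of this ratio. Over all tumors, Spp1 itself was not called (log2 fold change 0.09 ± 0.23 (SE), adjusted p = 0.849), nor was Cxcl9 (log2 fold change -0.91 ± 0.44 (SE), adjusted p = 0.181). Within the higher-numbered set Cxcl9 was called lower, with 194 to 1510 counts in triple antibody tumors against 3759, 4400 and 5150 in isotype control. In the lower-numbered set its counts overlapped between the groups.

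Csf2, which encodes GM-CSF, had 6, 4, 4, 2 and 0 counts in isotype control replicates 1 to 5 and 0 to 4 counts in triple antibody tumors, below the minimum for a test. Of 8 tested genes of the GM-CSF, IL-3 and IL-5 receptors and the CSF1 axis, 1 was called: Il34, the gene of another ligand of the CSF1 receptor, at 49.3, 57.2, 50.2, 56.8 and 50.2 CPM in isotype control and 37.5 to 48.6 CPM (median 41.6) in triple antibody tumors (log2 fold change -0.33 ± 0.08 (SE), adjusted p = 0.00654). Csf2ra, the ligand-binding chain of the GM-CSF receptor, was at 22.3, 29, 23.3, 27.2 and 27.2 CPM against 12.9 to 38.6 CPM (median 18.9) (log2 fold change -0.27 ± 0.18 (SE), adjusted p = 0.359). Of the 8 genes, 5 fell within the higher-numbered set (median -0.54) and none was called within the lower-numbered set. The Csf2ra log2 fold change was 0.09 (adjusted p = 0.894) in the lower- and -0.85 (adjusted p = 0.000307) in the higher-numbered set. Csf2rb2, the mouse-specific beta chain that shares most of its sequence with Csf2rb, spanned 9.13 to 51.8 CPM (median 25.2) (log2 fold change -0.01 ± 0.27 (SE), adjusted p = 0.982), and reads of both genes were divided between them. In CPM, every triple antibody tumor of the lower-numbered set was above both isotype control tumors of that set. Every triple antibody tumor of the higher-numbered set was below all isotype control tumors of its set.

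Of 22 macrophage and monocyte genes, 5 rose and none fell (median log2 fold change 0.09). Within the lower-numbered set 2 rose and none fell, and within the higher-numbered set 5 rose and 9 fell. The scavenger receptor gene Cd163, found on tissue-resident macrophages, was at 3.35, 2.92, 1.97, 0.886 and 4.58 CPM in isotype control and 3.43 to 15.5 CPM (median 6.44) in triple antibody tumors (log2 fold change 1.34 ± 0.33 (SE), adjusted p = 0.0102). F13a1, the A subunit of coagulation factor XIII, was at 37.6, 20.4, 30.7, 15.3 and 35 CPM against 36 to 86 CPM (median 58.5) (log2 fold change 1.15 ± 0.25 (SE), adjusted p = 0.00363), and Folr2, a folate receptor of resident macrophages, at 3.40, 3.06, 2.37, 3.08 and 4.20 against 3.79 to 8.96 CPM (median 6.16) (log2 fold change 0.93 ± 0.23 (SE), adjusted p = 0.0107). The groups overlapped in a narrow range for these 3 genes. Vcan, the proteoglycan versican, which monocytes and fibroblasts both make, was at 99.4, 74.8, 80.9, 50.9 and 84.3 CPM against 113 to 165 CPM (median 138) (log2 fold change 0.83 ± 0.16 (SE), adjusted p = 0.00190), without overlap. Fcrls, an Fc receptor-like gene of resident macrophages, rose in the higher-numbered set (2.43 (adjusted p = 0.000325)) and not in the lower (0.24 (adjusted p = 0.798), adjusted p of the change between sets = 0.0364, not called without isotype control replicate 1). Cd163 and Fcrls lost their calls without isotype control replicate 4 (adjusted p = 0.0644 and 0.0580), where the list had 3 calls. Without triple antibody replicate 1, 4 genes rose and 4 fell, and without isotype control replicates 2 and 4 none was called.

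A few further genes that macrophages express fell. Mmp12, the macrophage elastase, was at 29.4, 32.9, 29.5, 49.5 and 41.3 CPM in isotype control and 3.90 to 35.4 CPM (median 10.3) in triple antibody tumors (log2 fold change -1.58 ± 0.32 (SE), adjusted p = 0.00208). Clec7a, the beta-glucan receptor Dectin-1, was at 61, 67.4, 43.4, 42.2 and 50.1 CPM against 5.95 to 44.3 CPM (median 23.6) (log2 fold change -1.20 ± 0.33 (SE), adjusted p = 0.0181), and its call was lost without isotype control replicate 2 (adjusted p = 0.0660). Lpl, lipoprotein lipase, was at 11.1, 20.9, 17.2, 13.2 and 22.1 CPM against 5.14 to 12.1 CPM (median 8.37) (log2 fold change -1.02 ± 0.23 (SE), adjusted p = 0.00468). Lpl was 1 of 2 genes that fell among 20 in the list of Spp1 and lipid-handling macrophage genes, and no gene of that list rose. Within the higher-numbered set 8 of the 20 fell, and within the lower-numbered set none was called.

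Antigen presentation by MHC class I depends on the immunoproteasome, which cuts the peptides, and on beta-2-microglobulin, which completes the MHC molecule. Of 22 MHC class I presentation genes, 14 fell and none rose (median log2 fold change -0.35). Psmb8, a catalytic subunit of the immunoproteasome, was at 304, 354, 294, 331 and 299 CPM in isotype control and 185 to 277 CPM (median 225) in triple antibody tumors (log2 fold change -0.48 ± 0.08 (SE), adjusted p = 0.000424). Psme2, a subunit of the proteasome activator PA28, was at 189, 206, 182, 209 and 173 CPM against 141 to 159 CPM (median 149.6) (log2 fold change -0.35 ± 0.06 (SE), adjusted p = 0.000187). Neither gene showed overlap between the groups, and both fell in each set, with log2 fold changes of -0.40 (adjusted p = 0.0278) and -0.63 (adjusted p = 0.000295) for Psmb8 and -0.38 (adjusted p = 0.00479) and -0.35 (adjusted p = 0.00224) for Psme2. Psme1, the partner of Psme2, was at 161, 187, 149, 166 and 143 CPM against 116 to 161 CPM (median 128) (log2 fold change -0.31 ± 0.07 (SE), adjusted p = 0.00518). B2m, chosen after its values were seen for its promoter, was at 1409, 1809, 1444, 1735 and 1431 CPM against 829 to 1813 CPM (median 1168) (log2 fold change -0.35 ± 0.11 (SE), adjusted p = 0.0394), with overlap. The B2m call was lost without triple antibody replicate 7, 8, 9 or 11 or isotype control replicate 2 or 4 (adjusted p = 0.0602 to 0.148). The MHC class I genes that fell numbered 2 within the lower-numbered and 17 within the higher-numbered set. The number of MHC class I genes called was 8 with transcript length as an offset, 4 without isotype control replicate 2, 6 without replicate 4 and 0 without both.

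Of 13 MHC class II genes, 2 fell and none rose, both of them subunits of the peptide editor H2-DM. Within the higher-numbered set 8 fell and 1 rose (median log2 fold change -1.53), within the lower-numbered set none was called, and 4 fell without triple antibody replicate 1. H2-DMa was at 44.4, 58.1, 37.1, 36.4 and 38.3 CPM in isotype control and 9.84 to 41.2 CPM (median 18.5) in triple antibody tumors (log2 fold change -0.95 ± 0.23 (SE), adjusted p = 0.00775). H2-DMb1 was at 63.6, 81.6, 49.8, 64.3 and 54 CPM against 14.2 to 63.9 CPM (median 31.9) (log2 fold change -0.85 ± 0.23 (SE), adjusted p = 0.0150), with reads divided with a close paralog and a call that was lost without isotype control replicate 2 (adjusted p = 0.0702). Of 23 interferon-gamma-induced GTPases and targets, 11 fell within the higher-numbered set (median -0.87), where 6.44% of all tested genes fell. None was called within the lower-numbered set, and 4 fell without triple antibody replicate 1. Over both sets Ido1 alone was called, against 4.51% called lower over all tested genes. This gene of tryptophan breakdown was at 5.19, 13, 3.48, 6.54 and 4.81 CPM against 0.157 to 4.31 CPM (median 0.719) (log2 fold change -2.06 ± 0.58 (SE), adjusted p = 0.0196), and its call was lost without isotype control replicate 2 or 4 (adjusted p = 0.0530 to 0.106).

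Of 29 antiviral genes, which type I interferon induces, 13 rose and none fell (median log2 fold change 0.57). Oas2, a sensor that makes oligoadenylate on double-stranded RNA, was at 14.5, 17, 10.4, 11.2 and 11.3 CPM in isotype control and 17.4 to 42 CPM (median 24.1) in triple antibody tumors (log2 fold change 0.95 ± 0.21 (SE), adjusted p = 0.00438). Every triple antibody tumor was above every isotype control tumor. Ifi44, an interferon-induced gene, was at 12.7, 9.36, 4.74, 8.99 and 4.95 CPM against 10.1 to 31 CPM (median 15.5) (log2 fold change 0.99 ± 0.26 (SE), adjusted p = 0.0135), and Ddx58, the RNA sensor RIG-I, at 139.5, 118, 98, 97.7 and 100.2 against 125 to 164 CPM (median 141) (log2 fold change 0.37 ± 0.09 (SE), adjusted p = 0.00623). Ifit3b, an interferon-induced tetratricopeptide protein, was at 9.68, 9.49, 3.83, 6.92 and 3.88 CPM against 9.22 to 24.7 CPM (median 13.1) (log2 fold change 1.04 ± 0.26 (SE), adjusted p = 0.0110), with reads divided with its near copy Ifit3. Within the higher-numbered set 17 antiviral genes rose, and within the lower-numbered set none was called, where the Oas2 log2 fold change was 0.61 (adjusted p = 0.307) against 1.23 (adjusted p = 5.71e-05) in the higher set. In the other groups the Oas2 median was 36.5 CPM in aPD1, 18.4 in aPD1 + aGMCSF and 19.7 in aPD1 + aIL2RB. The count of antiviral genes called was 15 with transcript length as an offset, 8 without triple antibody replicate 1, 5, 4 and 6 without isotype control replicates 3, 4 and 5, and 0 without replicates 2 and 4. The median log2 fold change of the list in that last fit was 0.71.

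Promoter sequences are shown for genes called higher in the antiviral list and lower in the MHC class I list, since both kinds are known targets of interferon factors. The motif searched was GAAA, any 2 bases and GAAA again, on both strands, a core of interferon-stimulated response elements that can share no more than an end base with the CCAAT motif used for the sterol genes. It was found in the 250 bases before the start of 3.46% of 27025 mouse genes in RefSeq (GRCm38.p6), in 11 of 22 antiviral genes with an entry and in 3 of 19 MHC class I genes with an entry. A match describes letters and is not a bound site. The sequences run 5′ to 3′ along the gene's strand and end at the base before the start, and capitals mark the motif on either strand. Ifit3b (chr19:34607707-34607956, plus strand) and Rsad2 (chr12:26456453-26456702, minus strand) are from the antiviral list, and B2m (chr2:122147437-122147686, plus strand) is from the MHC class I list.
Ifit3b: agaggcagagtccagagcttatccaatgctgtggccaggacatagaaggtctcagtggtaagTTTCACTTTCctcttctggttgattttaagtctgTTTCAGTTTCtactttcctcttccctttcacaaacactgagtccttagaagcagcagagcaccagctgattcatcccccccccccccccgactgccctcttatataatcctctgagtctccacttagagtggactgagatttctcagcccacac
Rsad2: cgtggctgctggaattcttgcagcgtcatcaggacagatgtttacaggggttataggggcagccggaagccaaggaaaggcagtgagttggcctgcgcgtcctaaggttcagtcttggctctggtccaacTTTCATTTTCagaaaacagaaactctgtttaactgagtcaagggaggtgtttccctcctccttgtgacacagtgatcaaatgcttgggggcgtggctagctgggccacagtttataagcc
B2m: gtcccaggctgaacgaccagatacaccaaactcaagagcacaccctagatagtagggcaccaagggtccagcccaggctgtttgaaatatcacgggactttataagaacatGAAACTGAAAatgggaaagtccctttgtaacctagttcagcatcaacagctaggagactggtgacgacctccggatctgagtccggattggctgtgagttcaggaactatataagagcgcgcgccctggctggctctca

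Ifit3b carries 2 matches and Rsad2 and B2m 1 match each. Rsad2, which encodes the antiviral protein viperin and was also chosen after its values were seen, was at 92.3, 76, 42.1, 58.3 and 40.3 CPM in isotype control and 75.1 to 148 CPM (median 83.2) in triple antibody tumors (log2 fold change 0.63 ± 0.19 (SE), adjusted p = 0.0248), a call that was lost without isotype control replicate 3, 4 or 5 (adjusted p = 0.0833 to 0.0891). The B2m log2 fold change of -0.35 had the opposite sign, so a match of this motif was present at genes that moved in either direction.

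**Figure D3:**
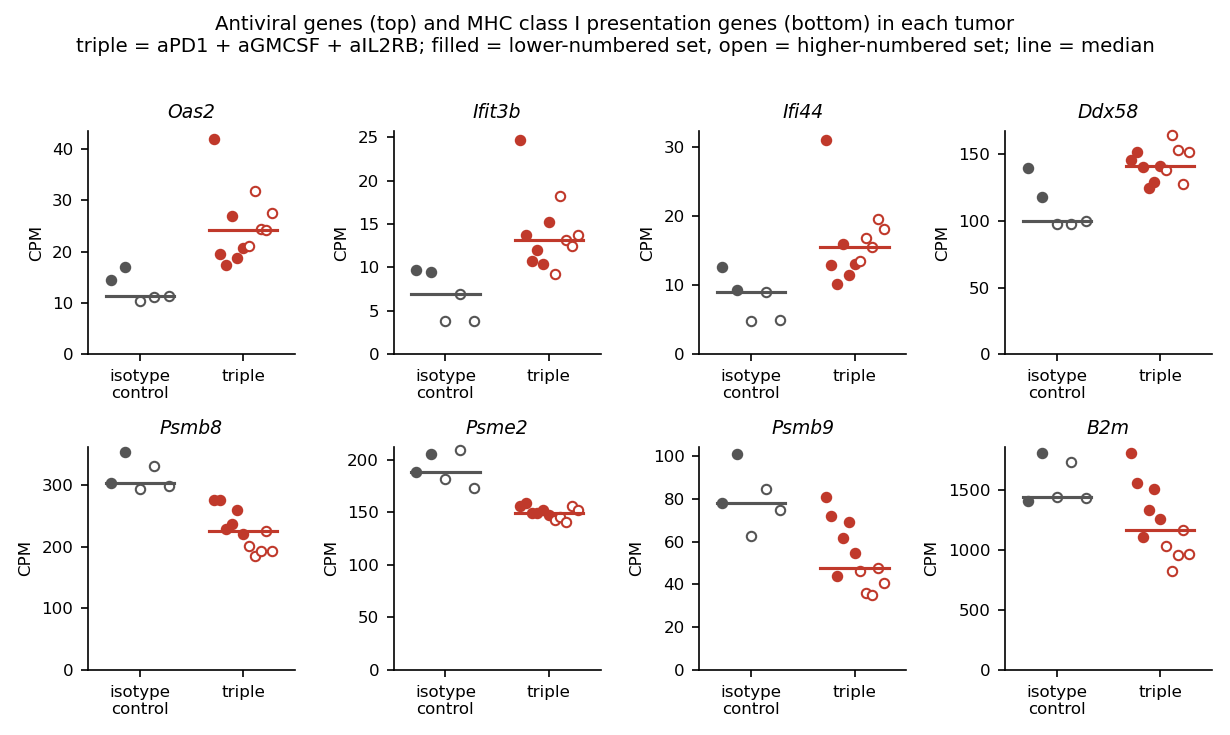
Levels in CPM (vertical axes, linear from 0) of 4 antiviral genes (top row) and 4 MHC class I presentation genes (bottom row) in each isotype control (grey) and aPD1 + aGMCSF + aIL2RB tumor (red), with filled points for the lower-numbered and open points for the higher-numbered set and lines at group medians. The red medians are above the grey medians in the top row and below them in the bottom row, and Oas2, Psmb8 and Psme2 show no overlap between the groups.

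Of 26 fibroblast and fibrillar collagen genes, 9 rose and none fell (median log2 fold change 0.32), and of 27 matrix remodeling genes 5 rose and 1 fell (median 0.19). Of the matrix remodeling genes, 2 rose within the lower-numbered set, 9 rose and 3 fell within the higher-numbered set, and none was called without isotype control replicates 2 and 4. Fn1, which encodes fibronectin (chr1:71585520-71653200 in GRCm38, minus strand), was among the genes with the smallest p-values. It was at 1466, 1149, 1526, 892 and 1085 CPM in isotype control and 2076 to 2872 CPM (median 2479) in triple antibody tumors (log2 fold change 1.01 ± 0.12 (SE), adjusted p = 1.54e-07). The lowest triple antibody tumor was above the highest isotype control tumor, and the other groups had medians of 1373 CPM in aPD1, 1910.0 in aPD1 + aGMCSF and 2474 in aPD1 + aIL2RB. Dcn, the collagen-binding proteoglycan decorin, was at 629, 658, 523, 549.7 and 468 CPM against 774 to 913 CPM (median 821) (log2 fold change 0.56 ± 0.09 (SE), adjusted p = 6.09e-05), and Lum, lumican, at 7.51, 11.2, 7.76, 7.51 and 9.62 against 11.3 to 26.7 CPM (median 17) (log2 fold change 0.98 ± 0.22 (SE), adjusted p = 0.00537). Both also separated the groups completely. Fn1 and Dcn rose in each set, by 0.80 (adjusted p = 0.00636) and 1.21 (adjusted p = 9.57e-06) for Fn1 and 0.37 (adjusted p = 0.0406) and 0.69 (adjusted p = 4.70e-05) for Dcn. Mrc2, a receptor that takes up collagen fragments, was at 33.9, 33.2, 27.2, 29.7 and 33.2 CPM against 43.2 to 63.2 CPM (median 49) (log2 fold change 0.69 ± 0.09 (SE), adjusted p = 3.36e-06). The small proteoglycans Ogn and Aspn rose by 1.70 ± 0.27, adjusted p = 8.56e-05, and 1.44 ± 0.24, adjusted p = 0.000158, on the log2 scale. Ogn was at 7.51, 6.66, 2.67, 1.94 and 2.62 CPM against 9.64 to 17.7 CPM (median 14.2), without overlap, and Aspn at 9.72, 7.12, 4.69, 4.90 and 4.90 against 10.8 to 24.5 CPM (median 16.6). Their log2 fold changes were 0.88 (adjusted p = 0.0690) and 0.76 (adjusted p = 0.0563) in the lower-numbered set and 2.62 (adjusted p = 9.54e-07) and 2.06 (adjusted p = 1.98e-05) in the higher-numbered set (adjusted p of the change between sets = 0.0152 and 0.0364, neither called without isotype control replicate 1). Of the fibroblast genes, 2 rose within the lower-numbered set, and within the higher-numbered set 12 rose and 1 fell. Fibroblast genes called numbered 7 with transcript length as an offset, 5 without isotype control replicate 4 and 3 without replicates 2 and 4.

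Col3a1, the chain of type III collagen, differed by set. It was at 3433, 2694, 1300.0, 1269 and 1352 CPM in isotype control replicates 1 to 5, so that the lower-numbered replicates 1 and 2 were within the triple antibody range of 2617 to 4258 CPM (median 3455) and the higher-numbered replicates were far below it. The log2 fold change was 0.10 (adjusted p = 0.803) in the lower- and 1.45 (adjusted p = 9.54e-07) in the higher-numbered set (adjusted p of the change between sets = 0.000866, not called without isotype control replicate 1). H19, an imprinted noncoding RNA of fetal and muscle tissue, showed the same kind of split in isotype control, at 125, 129, 17.5, 17 and 16.9 CPM against 46.4 to 254 CPM (median 159) (log2 fold change 1.25 ± 0.42 (SE), adjusted p = 0.0472). The H19 log2 fold change was -0.26 (adjusted p = 0.729) in the lower- and 3.47 (adjusted p = 2.10e-06) in the higher-numbered set (adjusted p of the change between sets = 2.41e-05).

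Among matrix enzymes, Adam12, a membrane metalloprotease of mesenchymal cells, was at 9.77, 6.53, 8.11, 3.54 and 8.69 CPM in isotype control and 11.4 to 16.9 CPM (median 14.1) in triple antibody tumors (log2 fold change 0.94 ± 0.18 (SE), adjusted p = 0.00127), without overlap. Adamts1, which cleaves versican, was at 44.5, 52, 59.5, 56.8 and 64.3 CPM against 62.6 to 86.3 CPM (median 71.8) (log2 fold change 0.41 ± 0.08 (SE), adjusted p = 0.00263). Of 18 TGF-beta ligands, receptors and targets, 6 rose and none fell (median log2 fold change 0.20). Ltbp3, which holds latent TGF-beta in the matrix, was at 70.8, 76.5, 59.1, 67.3 and 60.2 CPM against 69 to 106 CPM (median 90.8) (log2 fold change 0.43 ± 0.08 (SE), adjusted p = 0.000452). Tgfb3, a TGF-beta ligand, rose in the higher-numbered set (1.43 (adjusted p = 0.000557)) with little difference in the lower (0.09 (adjusted p = 0.870), adjusted p of the change between sets = 0.0282, not called without isotype control replicate 1). Of the TGF-beta genes, 1 rose within the lower-numbered set, 4 rose and 2 fell within the higher-numbered set, and 1 rose without isotype control replicates 2 and 4. TGF-beta genes called numbered 3 with transcript length as an offset, 3 without isotype control replicate 2 and 3 without replicate 4.

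Of 20 endothelial genes tested, 11 rose and none fell (median log2 fold change 0.44). Cdh5, the junction protein VE-cadherin, was at 57.5, 53, 54, 40.9 and 60.02 CPM in isotype control and 66 to 83.4 CPM (median 75) in triple antibody tumors (log2 fold change 0.49 ± 0.08 (SE), adjusted p = 0.000187). Kdr, the main VEGF receptor, was at 21.9, 22.6, 29.1, 20.8 and 31.3 CPM against 32.3 to 43.2 CPM (median 36.6) (log2 fold change 0.55 ± 0.12 (SE), adjusted p = 0.00363), and Tie1, a receptor of the angiopoietin system, at 8.97, 10.04, 10.03, 8.06 and 10.9 against 11.9 to 18.8 CPM (median 14.9) (log2 fold change 0.65 ± 0.14 (SE), adjusted p = 0.00426). For these 3 genes every triple antibody tumor lay above every isotype control tumor. Ptprb, the endothelial phosphatase VE-PTP, was at 16.1, 16.7, 18.2, 13.6 and 18.9 CPM against 17.7 to 39.5 CPM (median 26.9) (log2 fold change 0.71 ± 0.17 (SE), adjusted p = 0.00701). Of 13 pericyte and smooth muscle genes, 5 rose and none fell (median 0.51). Abcc9, a potassium channel subunit of pericytes, was at 18.2, 9.40, 15.7, 8.02 and 16.1 CPM against 20.6 to 38 CPM (median 29.3) (log2 fold change 1.10 ± 0.19 (SE), adjusted p = 0.000376), and Rgs5, a regulator of G protein signaling in pericytes, at 41.1, 47.7, 38.3, 33 and 37.3 against 46.2 to 69.2 CPM (median 53.5) (log2 fold change 0.51 ± 0.13 (SE), adjusted p = 0.00964). Endothelial genes called numbered 9 with transcript length as an offset, 7 without isotype control replicate 2, 4 without replicate 4 and 1 without both, and 3 within each set. Pericyte genes that rose numbered 1 within the lower-numbered and 4 within the higher-numbered set. Pericyte genes called numbered 3 without any of isotype control replicates 2, 3 and 5 or triple antibody replicates 3, 4, 6 and 7, and 2 without isotype control replicate 4, where Rgs5 lost its call (adjusted p = 0.0640).

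Of 22 skeletal muscle genes tested, 5 rose and none fell (median log2 fold change 2.44). The count was 2 with transcript length as an offset, 0 without isotype control replicate 4, 1 without replicate 2, 3 or 5, 2 without triple antibody replicate 1, 6 or 7, and 0 within either set. Ttn, the giant sarcomere protein titin, was at 35.9, 8.99, 10.1, 2.32 and 5.65 CPM in isotype control and 9.61 to 221 CPM (median 76.8) in triple antibody tumors (log2 fold change 2.65 ± 0.85 (SE), adjusted p = 0.0394). Myh4, a fast myosin heavy chain, was at 3.49, 1.19, 0, 0 and 0 CPM against 0.205 to 98.3 CPM (median 12.1) (log2 fold change 4.66 ± 1.41 (SE), adjusted p = 0.0303), and Neb, nebulin, at 6.56, 1.96, 2.07, 1.77 and 2.90 against 1.39 to 61.8 CPM (median 22.3) (log2 fold change 2.82 ± 0.89 (SE), adjusted p = 0.0374). The groups overlapped for all 3 genes, and neither set on its own gave a call for them. The median log2 fold change of the list was 1.60 in the lower- and 4.47 in the higher-numbered set. The summed level of the list was 22 to 118 CPM in isotype control and 31.4 to 621 in triple antibody tumors, and the defining markers Acta1 and Ckm were not called (Acta1 0 to 11.4 against 0 to 53.9 CPM, Ckm 0.0934 to 2.60 against 0 to 18 CPM). The Ttn median was 102 CPM in aPD1, 32.5 in aPD1 + aGMCSF and 49.1 in aPD1 + aIL2RB. Ttn lost its call in 7 of 16 fits without 1 tumor (adjusted p = 0.0514 to 0.138), Neb in 6 (adjusted p = 0.0534 to 0.121) and Myh4 in 5 (adjusted p = 0.0509 to 0.104), each time including those without isotype control replicates 2, 3, 4 or 5. The part of muscle tissue taken with a tumor in this difference was not tested.

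Cdh1, the epithelial junction gene of E-cadherin, was 1 of 2 genes that fell among 14 carcinoma epithelial genes (median log2 fold change -0.91), none of which rose, and 1 fell within the lower-numbered and 4 within the higher-numbered set. Cdh1 was at 5.95, 6.16, 7.51, 6.25 and 5.84 CPM in isotype control and 0.263 to 4.31 CPM (median 2.01) in triple antibody tumors (log2 fold change -1.64 ± 0.27 (SE), adjusted p = 0.000187). No tumors overlapped, and the sets gave log2 fold changes of -1.72 (adjusted p = 0.0159) and -1.53 (adjusted p = 0.0101). The other groups had Cdh1 medians of 5.80 CPM in aPD1, 3.64 in aPD1 + aGMCSF and 2.25 in aPD1 + aIL2RB. Certain leukocytes also express Cdh1, and its source was not tested. Sox9, a transcription factor of intestinal epithelium, was at 86.2, 98, 124, 119 and 111 CPM against 76.1 to 108 CPM (median 87) (log2 fold change -0.30 ± 0.09 (SE), adjusted p = 0.0376), and its call was lost without triple antibody replicate 2 or 5 or isotype control replicate 2, 3, 4 or 5 (adjusted p = 0.0508 to 0.140).

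**Figure D4:**
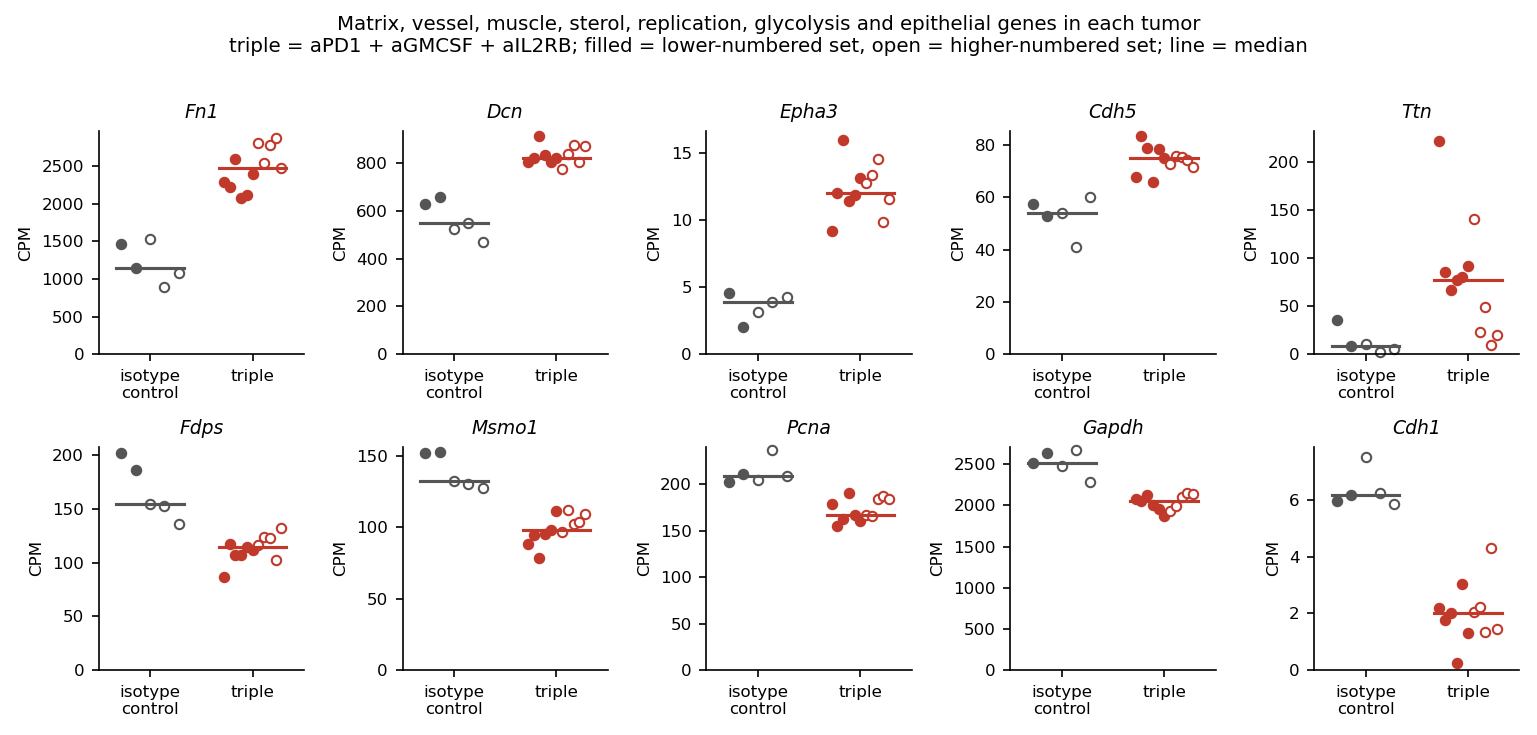
Levels in CPM (vertical axes, linear from 0) of matrix (Fn1, Dcn), ephrin receptor (Epha3), vessel (Cdh5), muscle (Ttn), sterol (Fdps, Msmo1), replication (Pcna), glycolysis (Gapdh) and epithelial (Cdh1) genes in each isotype control (grey) and aPD1 + aGMCSF + aIL2RB tumor (red), with filled points for the lower-numbered and open points for the higher-numbered set and lines at group medians. Ttn overlaps between the groups, and the other 9 genes do not.

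Growth factor and receptor genes moved in both directions. Of 28 tested, 8 rose and 2 fell (median log2 fold change 0.20). Epha3, an ephrin receptor of mesenchymal cells, was at 4.58, 2.01, 3.17, 3.92 and 4.30 CPM in isotype control and 9.17 to 16 CPM (median 12) in triple antibody tumors (log2 fold change 1.78 ± 0.25 (SE), adjusted p = 1.09e-05). The lowest triple antibody tumor was well above the highest isotype control tumor, and the other groups had medians of 3.19 CPM in aPD1, 5.65 in aPD1 + aGMCSF and 12.8 in aPD1 + aIL2RB. Gas6, the ligand of Axl and Mertk, was at 10.9, 12.3, 8.16, 6.42 and 10.5 CPM against 11.1 to 29.1 CPM (median 18.6) (log2 fold change 0.92 ± 0.21 (SE), adjusted p = 0.00441). Axl, its receptor, was slightly lower, at 612, 701, 705, 719.6 and 679.8 against 550.2 to 653 CPM (median 606) (log2 fold change -0.18 ± 0.05 (SE), adjusted p = 0.0171). Igf1 was at 5.24, 5.75, 4.54, 3.54 and 5.51 CPM against 5.76 to 16.7 CPM (median 8.69) (log2 fold change 0.82 ± 0.23 (SE), adjusted p = 0.0205), and Igfbp5, which binds it, at 15.8, 14, 13.2, 9.92 and 18 against 12.6 to 38.2 CPM (median 27.6) (log2 fold change 0.97 ± 0.22 (SE), adjusted p = 0.00493). Pdgfa, a ligand of PDGF receptors, fell from 48.2, 63.4, 55.2, 58.3 and 44.9 CPM to 35.3 to 46.1 CPM (median 42) (log2 fold change -0.38 ± 0.10 (SE), adjusted p = 0.0117). Igf1 lost its call without isotype control replicate 4 (adjusted p = 0.102), and Axl and Pdgfa without replicate 2 or 4 (adjusted p = 0.0575 to 0.0716 and adjusted p = 0.0525 to 0.0672). Within the sets 2 of these genes rose and none fell in the lower-numbered and 7 rose and 3 fell in the higher-numbered set. The list had 6 calls with transcript length as an offset and 5, 3 and 6 without isotype control replicates 2, 4 and 5.

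Of 23 G1/S and DNA replication genes, 9 fell and none rose (median log2 fold change -0.20), and the same number fell with transcript length as an offset. The count was 3 within the lower-numbered set and 7 within the higher-numbered set, and 3 fell without isotype control replicates 2 and 4, where no G2/M gene was called. Pcna, the sliding clamp of DNA polymerase, was at 202, 211, 205, 236 and 209 CPM in isotype control and 155 to 191 CPM (median 167) in triple antibody tumors (log2 fold change -0.30 ± 0.06 (SE), adjusted p = 0.00292). Mcm3, a subunit of the replicative helicase, was at 247, 236, 236, 234 and 253 CPM against 178 to 217 CPM (median 205) (log2 fold change -0.27 ± 0.06 (SE), adjusted p = 0.00384), and Lig1, the ligase that seals Okazaki fragments, at 104, 109, 109, 101 and 109 against 78.7 to 94.9 CPM (median 86.9) (log2 fold change -0.28 ± 0.04 (SE), adjusted p = 8.56e-05). These 3 genes separated the groups completely. Outside the list, Stmn1, the tubulin-binding protein stathmin, fell by 0.36 ± 0.06, adjusted p = 9.38e-05, and Hmgb2, a chromatin protein of dividing cells, by 0.35 ± 0.06, adjusted p = 0.000361, on the log2 scale. Tipin, which protects stalled forks, was at 53.4, 59, 56.9, 61.4 and 52.5 CPM against 41 to 53 CPM (median 45.3) (log2 fold change -0.31 ± 0.05 (SE), adjusted p = 0.000376). Of 23 G2/M and mitosis genes, 6 fell and none rose (median -0.14), with none called within the lower-numbered and 3 lower within the higher-numbered set. Birc5, survivin, was at 96.2, 100.5, 106, 112 and 110.0 CPM against 79.5 to 96.5 CPM (median 90.1) (log2 fold change -0.24 ± 0.05 (SE), adjusted p = 0.00598), and Cdk1, the mitotic kinase, at 112, 134, 132, 132 and 123 against 95.3 to 118 CPM (median 106) (log2 fold change -0.25 ± 0.07 (SE), adjusted p = 0.0176). The count of G2/M genes was 3 without isotype control replicate 1, 3 or 5, 2 without replicate 2 and 1 without replicate 4, and Cdk1 lost its call without replicate 2 or 4 (adjusted p = 0.0658 to 0.0674).

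Of 19 glycolysis genes tested, 8 fell and none rose (median log2 fold change -0.28), with 4 lower within the lower-numbered and 8 within the higher-numbered set. Gapdh was at 2513, 2638, 2478, 2673 and 2278 CPM in isotype control and 1876 to 2155 CPM (median 2059) in triple antibody tumors (log2 fold change -0.30 ± 0.06 (SE), adjusted p = 0.00264), without overlap. Tpi1, triosephosphate isomerase, was at 493, 548, 459, 463 and 387 CPM against 335 to 396 CPM (median 369) (log2 fold change -0.36 ± 0.08 (SE), adjusted p = 0.00365), and Ldha, lactate dehydrogenase, at 1177, 1382, 1124, 1251 and 1012 against 794 to 1049 CPM (median 911) (log2 fold change -0.36 ± 0.09 (SE), adjusted p = 0.00952). Pkm, pyruvate kinase, was at 2252, 2491, 2037, 2254 and 1961 CPM against 1692 to 1994 CPM (median 1855) (log2 fold change -0.25 ± 0.06 (SE), adjusted p = 0.00927). Gapdh and Pkm have many near copies in the genome, and some of their counts were divided. Of 19 hypoxia response genes, 5 fell and none rose (median -0.16), and 2 fell with transcript length as an offset. Within the lower-numbered set 5 fell, and within the higher-numbered set 1 fell and 2 rose. Among the 5 was Egln1, an oxygen-sensing hydroxylase, at 140.4, 147, 114, 122 and 104 CPM against 94.3 to 112 CPM (median 102) (log2 fold change -0.29 ± 0.07 (SE), adjusted p = 0.00799). Without isotype control replicate 2 the counts were 2 glycolysis and 0 hypoxia genes, and Ldha, Pkm and Egln1 lost their calls (adjusted p = 0.0578, 0.0603 and 0.0607). Glycolysis genes numbered 5 without isotype control replicate 4, and hypoxia genes 2 without triple antibody replicate 8 and 8 without isotype control replicate 5, while without isotype control replicate 1 there was 1 lower and 1 higher hypoxia gene. Without isotype control replicates 2 and 4 no gene of either list was called.

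SREBP-2 turns on the genes of cholesterol synthesis when sterols are scarce, together with NF-Y, which binds CCAAT boxes. Of 24 tested, 12 fell and none rose (median log2 fold change -0.33), 13 fell with transcript length as an offset and 5 fell without isotype control replicates 2 and 4. Fdps, which makes farnesyl diphosphate, was at 202, 187, 155, 153 and 136 CPM in isotype control and 87.1 to 132 CPM (median 114) in triple antibody tumors (log2 fold change -0.56 ± 0.10 (SE), adjusted p = 0.000862). Msmo1, a sterol demethylase, was at 153, 153, 132, 130.2 and 128 CPM against 78.9 to 112 CPM (median 98) (log2 fold change -0.49 ± 0.10 (SE), adjusted p = 0.00183), and Fdft1, squalene synthase, at 67.9, 66.7, 54.2, 50.9 and 49.7 against 31.1 to 44.5 CPM (median 43.1) (log2 fold change -0.47 ± 0.10 (SE), adjusted p = 0.00292). These 3 genes separated the groups completely. Idi1, isopentenyl diphosphate isomerase, chosen after its values were seen for its promoter, was at 136, 119, 92.1, 94.4 and 92.6 CPM against 64.3 to 84.8 CPM (median 74.8) (log2 fold change -0.50 ± 0.12 (SE), adjusted p = 0.0101). Within the lower-numbered set 11 sterol genes fell, and within the higher-numbered set 2. The log2 fold change of Fdps was -0.86 (adjusted p = 0.000423) in the lower- and -0.31 (adjusted p = 0.0879) in the higher-numbered set, and a change between the sets was not called (adjusted p = 0.106). The Fdps median was 122 CPM in aPD1, 148 in aPD1 + aGMCSF and 120.2 in aPD1 + aIL2RB, and some Fdps, Fdft1 and Idi1 counts were divided with near copies.

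The promoters of Msmo1 (chr8:64733579-64733828, minus strand) and Idi1 (chr13:8885356-8885605, plus strand) are shown for their matches of the CCAAT box. No element bound by SREBP-2 was searched. CCAAT on either strand was found in the 250 bases before the start of 37.5% of 27025 genes, in all 16 of the sterol genes with an entry, 6 of them called lower, in 14 of 19 MHC class I genes and in 9 of 22 antiviral genes. The sequences are from RefSeq (GRCm38.p6) and run 5′ to 3′ along the gene's strand, with CCAAT or its reverse complement ATTGG in capitals.
Msmo1: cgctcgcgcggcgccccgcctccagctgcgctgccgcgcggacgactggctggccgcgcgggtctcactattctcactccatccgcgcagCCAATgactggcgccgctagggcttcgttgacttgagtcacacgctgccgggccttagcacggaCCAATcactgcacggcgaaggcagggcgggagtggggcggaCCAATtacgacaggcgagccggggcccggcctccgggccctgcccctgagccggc
Idi1: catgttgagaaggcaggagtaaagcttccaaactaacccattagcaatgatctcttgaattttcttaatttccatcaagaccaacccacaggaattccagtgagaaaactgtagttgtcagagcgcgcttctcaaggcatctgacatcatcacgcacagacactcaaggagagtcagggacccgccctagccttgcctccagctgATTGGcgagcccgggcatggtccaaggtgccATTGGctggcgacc

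Msmo1 holds 3 matches, the nearest 55 bases before the start, and Idi1 holds 2, the nearest 14 bases before it. Such a short motif is common, and the match says nothing about which factor was active. Of 16 fatty acid synthesis and desaturation genes, 4 fell and none rose (median log2 fold change -0.17). Fads1, a desaturase, was at 294, 267, 258, 234 and 218 CPM in isotype control and 181 to 242 CPM (median 218) in triple antibody tumors (log2 fold change -0.23 ± 0.07 (SE), adjusted p = 0.0263), and its call was lost without isotype control replicate 1, 2 or 3 (adjusted p = 0.0502 to 0.0999). Fatty acid genes that fell numbered 7 within the lower-numbered and 2 within the higher-numbered set. The count of fatty acid genes was 2, 0, 2 and 1 without isotype control replicates 1, 2, 3 and 4.

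Many genes with short transcripts fell and many with long transcripts rose. When the tested genes were divided into 4 equal groups by the length of their longest transcript, in the shortest group (151 to 1918 bases), 1.45% were called higher and 7.11% lower, and in the longest group (at least 4545 bases), 15.3% were called higher and 1.26% lower. The mean level of the longest minus the shortest group, on the log2 scale and centered over tumors, was -0.05, -0.19, -0.06, -0.25 and -0.08 in isotype control replicates 1 to 5 and -0.06 to 0.12 (median 0.06) in triple antibody tumors. Isotype control replicates 2 and 4 were the lowest of all 16 tumors. With the trend on transcript length taken out of each tumor as an offset, 426 genes were called higher and 587 lower, and 825 of the 1726 genes were still called. The cause of this trend was not tested.

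**Figure D5:**
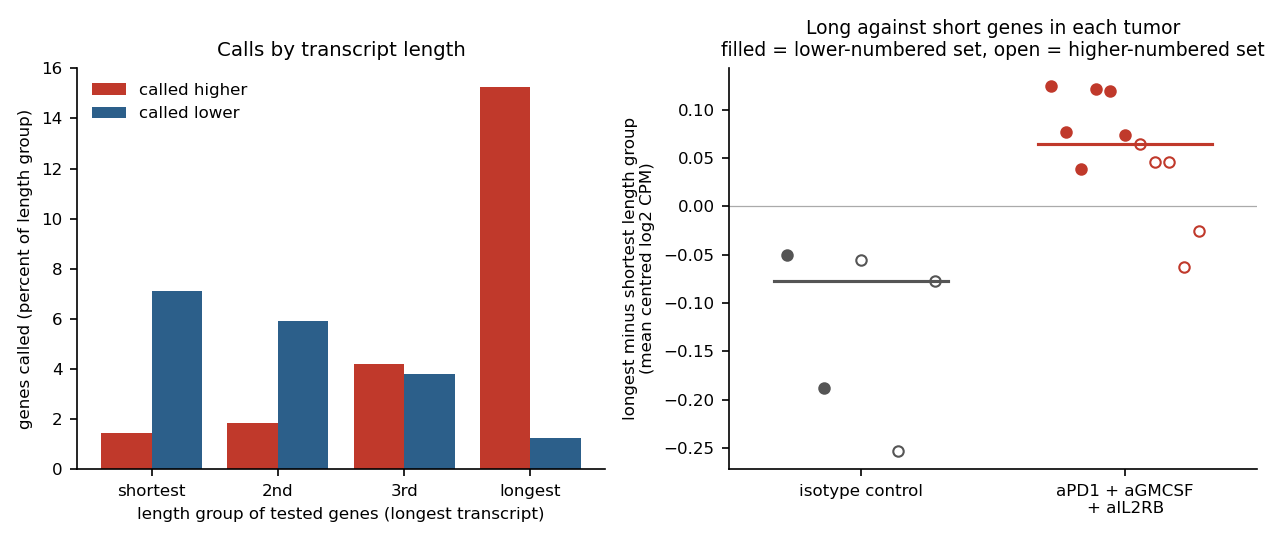
Left, percent of tested genes called higher (red) and lower (blue) in aPD1 + aGMCSF + aIL2RB than in isotype control tumors, in 4 groups by the length of the longest transcript, with 15.3% higher in the longest and 7.11% lower in the shortest group. Right, mean centered log2 CPM of the longest minus the shortest group in each tumor (filled points, lower-numbered set, open points, higher-numbered set, lines, medians), with isotype control replicates 2 and 4 lowest at -0.19 and -0.25.

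Several lists differed in how far they depended on transcript length. Of 48 cytoplasmic ribosomal protein genes, which are short, 12 fell and none rose (median log2 fold change -0.17), and none was called with the length offset. Of 22 constitutive proteasome genes, 13 fell (median -0.18) and 5 with the offset, where Psma6, a core subunit, kept its call (log2 fold change -0.27 ± 0.06 (SE), adjusted p = 0.00340, and -0.19 (adjusted p = 0.0104) with the offset). Of 30 nuclear oxidative phosphorylation genes, 9 fell (median -0.14) and 3 with the offset. Cox7a2, a cytochrome c oxidase subunit, was at 65, 69.6, 66.8, 66.5 and 66 CPM against 46.9 to 61 CPM (median 51.2) (log2 fold change -0.33 ± 0.08 (SE), adjusted p = 0.00843). In the other direction, 4 of 24 chromatin regulators, which are long, rose (median 0.14), and with the offset none rose and 1 fell. Kmt2d, a histone methyltransferase, went from 0.32 ± 0.11, adjusted p = 0.0462, to -0.03 (adjusted p = 0.777) with the offset, and Crebbp, an acetyltransferase, from 0.27 ± 0.07, adjusted p = 0.0163, to 0.04 (adjusted p = 0.624). The 4 genes of 18 that rose among endoplasmic reticulum stress genes were not called with the offset either. In the lower-numbered and the higher-numbered set, 0 and 2 ribosomal protein genes, 4 and 1 proteasome genes and 1 and 1 oxidative phosphorylation genes fell, 1 oxidative phosphorylation gene rose in the higher-numbered set, and 0 and 1 chromatin genes and 3 and 3 endoplasmic reticulum stress genes rose. Each of these lists also changed with single tumors. Ribosomal genes called ranged from 0 without isotype control replicate 2 or 4 to 21 without triple antibody replicate 10, proteasome genes numbered 5, 5 and 8 without isotype control replicates 2, 4 and 5, oxidative phosphorylation genes 1 without replicate 2 or 4, endoplasmic reticulum stress genes 1 and 2 and chromatin genes 0 and 0 without replicates 2 and 4.

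Circadian clock genes were a small further group, with 3 of 15 higher and none lower (median log2 fold change 0.28), none called within the lower-numbered and 5 higher within the higher-numbered set. Per1, a repressor of the clock, was at 35.5, 25.3, 28.5, 32.5 and 35.2 CPM in isotype control and 32.1 to 85.2 CPM (median 69.5) in triple antibody tumors (log2 fold change 0.98 ± 0.21 (SE), adjusted p = 0.00366). Only the lowest triple antibody tumor was within the isotype control range. Per3 was at 18.1, 16.1, 13.9, 11.5 and 13.6 CPM against 15.4 to 29.1 CPM (median 24.8) (log2 fold change 0.69 ± 0.18 (SE), adjusted p = 0.0113), a call that was lost without isotype control replicate 4 (adjusted p = 0.0668). The list had 5 calls without triple antibody replicate 1 or isotype control replicate 1.

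Some of the smallest p-values belonged to genes outside the lists. Plcb1, a phospholipase C, was at 12.8, 11.3, 9.42, 9.62 and 8.22 CPM in isotype control and 15 to 19.8 CPM (median 16.2) in triple antibody tumors (log2 fold change 0.71 ± 0.10 (SE), adjusted p = 1.09e-05). Dpysl3, a cytoskeletal protein of neurons and mesenchymal cells, was at 83.2, 78, 87.6, 77.4 and 80.2 CPM against 92.9 to 139 CPM (median 118) (log2 fold change 0.52 ± 0.07 (SE), adjusted p = 1.74e-05). Zfhx4, a zinc finger homeobox factor, was at 9.16, 3.97, 8.32, 5.61 and 8.78 CPM against 14.8 to 21.1 CPM (median 17.3) (log2 fold change 1.29 ± 0.19 (SE), adjusted p = 2.13e-05), and Rassf8 at 38.1, 35.7, 39.8, 34.6 and 36.5 against 45.6 to 58.9 CPM (median 50.2) (log2 fold change 0.47 ± 0.07 (SE), adjusted p = 5.23e-05). Slco2b1, an organic anion transporter, was at 10.01, 7.62, 10.8, 7.81 and 8.27 CPM against 12.8 to 22.1 CPM (median 17.9) (log2 fold change 0.98 ± 0.15 (SE), adjusted p = 5.91e-05). All 5 genes separated the groups, and all 5 remained called with the length offset. Atg9b, a member of the autophagy gene family Atg9, fell from 14, 15.2, 17.2, 14.6 and 12.8 CPM to 6.58 to 10.1 CPM (median 7.97) (log2 fold change -0.83 ± 0.13 (SE), adjusted p = 8.37e-05), also without overlap. Tmsb10, an actin-binding thymosin, fell from 629.8, 718, 635, 679 and 571 CPM to 477 to 541 CPM (median 514) (log2 fold change -0.34 ± 0.06 (SE), adjusted p = 0.000228). Apod, a lipid carrier, and Bmp3, a ligand of the TGF-beta superfamily, rose by 1.47 ± 0.25, adjusted p = 0.000187, and 1.67 ± 0.35, adjusted p = 0.00313, on the log2 scale.

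Among the most abundant genes, beta-actin (Actb) was at 3090.0, 3681, 3420.0, 3533 and 3350.0 CPM in isotype control and 2543 to 3476 CPM (median 2773) in triple antibody tumors (log2 fold change -0.26 ± 0.07 (SE), adjusted p = 0.0189). Vim, vimentin, was at 2650.0, 3153, 2842, 3148 and 2831 CPM against 2207 to 2872 CPM (median 2643) (log2 fold change -0.20 ± 0.05 (SE), adjusted p = 0.0178). Both lost their calls without isotype control replicate 2 or 4 (adjusted p = 0.0643 to 0.0758 and adjusted p = 0.0800 to 0.0827). Col6a3, a chain of type VI collagen, was at 1173, 933, 1062, 786 and 1045 CPM against 1065 to 1370.0 CPM (median 1208) (log2 fold change 0.30 ± 0.08 (SE), adjusted p = 0.0119), and with the length offset its log2 fold change was 0.09 (adjusted p = 0.250). Col6a3 also lost its call without either of these tumors (adjusted p = 0.0501 to 0.1004).

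No gene was called among 7 Fc receptors for IgG, 17 complement, 9 keratinocyte and hair follicle, 13 mitochondrially encoded protein, 20 integrated stress response, 14 heat shock and 16 immediate early genes tested. Within the higher-numbered set, 4 of the Fc receptor genes (median log2 fold change -0.60) and 8 of the complement genes (median -0.75) fell, and none of either list was called within the lower-numbered set. Ptprc, which encodes the pan-leukocyte marker CD45, was at 149.7, 154, 161, 150.5 and 180.4 CPM in isotype control and 86.8 to 368 CPM (median 129.7) in triple antibody tumors (log2 fold change -0.01 ± 0.22 (SE), adjusted p = 0.985). Its log2 fold change was 0.45 (adjusted p = 0.415) in the lower-numbered and -0.73 (adjusted p = 0.00442) in the higher-numbered set, with medians of 191 and 93.7 CPM in the triple antibody tumors of each set. The part of leukocyte content in the differences of single genes was not tested.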

How the data were processed

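Poly(A) RNA-seq libraries of 16 tumors were compared within a fit of all 42. The authors aligned the reads with Bowtie 1.2.3 to transcriptomes of the Collaborative Cross founder strains, built on GRCm38, and deposited expected counts per gene, estimated with gbrs and summed over haplotypes, without normalization. Reads shared by similar genes were divided, and 15.2% of the deposited values are not whole. The strand setting is not given in the sources used here. Of 26811 genes, 26629 took a symbol and coordinates from a GENCODE annotation of GRCm38 by Ensembl identifier. No pair of tumors of these 2 groups was as close as a repeated library. The biological replicates are given by the labels.

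Expected counts were rounded. Low genes were removed with filterByExpr (all 5 groups, count threshold 10, total threshold 15), which left 16932 genes, which were normalized by TMM and tested with edgeR 4.0.16 quasi-likelihood tests in R 4.3.3, adjusted by the Benjamini-Hochberg method over all of them. Adjusted p-values without another name are from these tests, and fold changes are on the log2 scale. CPM are counts scaled to the TMM-adjusted library size. The change between sets was tested as an interaction with 1 coefficient for each treatment and set. For genes at or near 0 in triple antibody tumors, ratios of summed counts are given with 95% exact intervals, which cover counting error only, and a floor of 3 counts over the group. The Cxcl9/Spp1 ratio was tested in Python 3.11.15 with scipy 1.17.1 by exact two-sided tests. The scripts for edgeR were first tested on simulated counts with known changes.

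The comparison and the 57 gene lists were chosen with earlier results of these data known, and lists are described by counts and medians only. Genes named are the 15 per direction with the largest fold change among called genes with an average log2 CPM of at least 1 and the same sign in both sets, the 8 per direction with the smallest p, up to 4 per direction and list, the 5 per direction with the smallest p of the change between sets, the 4 per direction with the highest level, and genes of the blocked pathways; not all are printed, and a few items are not reported here. Rsad2, B2m and Idi1 were added after their values were seen. Promoters are 250 bases before the start in RefSeq GRCm38.p6, where some genes have no entry.

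Alternatives were DESeq2 1.42.0, its size factors, library size only, other filters, only these 2 groups in the fit, the set as a term, each set alone, the replicate number as a block, the 5 rRNA genes left out, and each tumor left out in turn. The transcript-length offset and the fit without isotype control replicates 2 and 4 were added after seeing the data.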

Additional observations from a re-analysis of the deposited data

Results flagged for a closer look

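The difference between aPD1 + aGMCSF + aIL2RB and isotype control tumors changed between the replicate-number sets for 186 genes by the interaction test in edgeR, 70 with a higher and 116 with a lower log2 fold change in the higher-numbered set, and 149 of them had opposite signs in the 2 sets. The isotype control tumors number 2 and 3 in these sets. In the values that follow, the log2 fold change of the lower-numbered set is subtracted from that of the higher-numbered set. Among lymphocyte genes the change was -3.55 for Zap70, -4.95 for Gzmb, -6.19 for Gzmc and -6.86 for Gzmd. It was 2.19 for Fcrls, 1.35 for Col3a1, 1.74 for Ogn, 1.30 for Aspn and 1.35 for Tgfb3. The genes with the smallest p of the change included H19 (3.73), Cilp, a cartilage matrix protein (3.09), and F3, tissue factor (1.79). They also included Tead4, a Hippo pathway factor (-1.49), Cd93, an endothelial and myeloid receptor (-0.92), Sat1, a polyamine acetyltransferase (-0.70), Emp1, an epithelial membrane protein (-0.60), and Itgb3, integrin beta 3 (-0.95). Without isotype control replicate 1 the change was called for 4 genes, H19, Cilp, Tead4 and Cd93, and for none of the others named here.

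In isotype control, 1 tumor stood apart from the other 4 for a few genes, measured as its gap to the nearest tumor over the range of the group, with 0.71 as the critical value. Such a value is met by chance in about 1 of 20 groups, and at least 115 genes were checked, so several such genes would be met by chance. It was 0.765 for Neb and 0.769 for Ttn, both highest in replicate 1, 0.756 for Cdh1, highest in replicate 3, and 0.74 for Pcna, highest in replicate 4. The summed level of the keratinocyte and hair follicle genes gave 0.828, with 11.3 CPM in replicate 5.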

How the results depend on the processing

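The contrast called 1726 genes. Counts within 1.5 times of this were given by DESeq2, other scalings, other filters, only the 2 groups in the fit, the set as a term, the higher-numbered set alone (820 higher, 1091 lower) or no rRNA genes. With a total of at least 5 counts, 640 were higher and 697 lower. With only the 2 groups and the set as a term, 979 were higher and 1149 lower. The lower-numbered set alone called 332, the transcript-length offset 1013 (426 higher, 587 lower), and the fit without isotype control replicates 2 and 4 called 81 (33 higher, 48 lower). Leaving out 1 tumor gave 485 (without isotype control replicate 4) to 2019 (without isotype control replicate 1), and 367 genes were called in all 16 of these fits. Of 115 genes checked singly under each alternative, all called over all tumors except Cxcl9, Kmt2d changed sign, to a log2 fold change of -0.026 with the offset. Csf2ra, Csf2rb2, H19 and Ptprc were not among them and had opposite signs in the 2 sets. The causes were not tested.

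The change between sets was called for 186 genes, for 143 to 228 with other scalings, other filters, the offset or no rRNA genes (171 with library size only, 41 higher and 130 lower against 70 and 116), for 443 with DESeq2, for 84 with only the 2 groups in the fit and for 17 without isotype control replicates 2 and 4. Leaving out 1 tumor gave 4 (without isotype control replicate 1) to 408 (without triple antibody replicate 10).

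The Cxcl9/Spp1 test gave p = 0.115 over all tumors by the exact Wilcoxon test, 0.0357 within the higher-numbered set, 0.286 within the lower-numbered set, and 0.0400 (without triple antibody replicate 1) to 0.226 with 1 tumor left out. The exact permutation test of the mean log2 ratio gave p = 0.0806 over all tumors and 0.00638 with labels permuted within sets.

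Replicate numbers 1 to 5 occur in both groups, and the correlation of deviations of same-numbered tumors was -0.041 to 0.15, with 1 of 5 best matched to its own number. The numbers were not taken as pairs. Numbers 3 to 5 lie in different sets in the 2 groups, so this check could hardly show pairing for them. With the replicate block 3941 genes were called, and the change between sets was called for 0 genes (860 at an unadjusted p under 0.05). Replicate numbers and sets largely coincide, so this fit leaves little from which to estimate a change between sets. The exact sign-flip test of the ratio over 5 pairs gave p = 0.875. With so few pairs it could not pass 0.05, and it leaves out the triple antibody tumors of the higher-numbered set. Depth limits genes with few counts, such as Csf2.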
